A study of Homo sapiens with 54 samples.

Results

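HCT116 cells exposed to TNF-α for 6 h were compared with HCT116 cells exposed to IL-10 for the same 6 h. The comparison uses 3 TNF-α libraries and 3 IL-10 libraries, 6 of the 54 libraries of the series, chosen by the line, treatment and time in their labels. HCT116 is an established human colon cancer line, and no group carries a genetic change made by the study. TNF-α was given at 100 ng/mL and IL-10, per the design text, at 50 ng/mL. The treatment protocol in the labels leaves the IL-10 treatment undescribed, so its handling is known only by its 6 h label. These cells serve here as the control. The series also holds IL-6 and Torin1 groups, a 3 h time, medium controls (NC) with no time in their labels, and the same groups in the liver cancer line HepG2. Its design text names TIMP1, TIMP2, the matrix metalloproteinases and EGF as genes of interest.

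TNF-α is an inflammatory cytokine whose receptor TNFR1 gathers adaptor proteins and ubiquitin ligases into a membrane complex. That complex activates the IKK kinases, which mark IκB inhibitors for destruction and free NF-κB dimers to enter the nucleus, and it also feeds the JNK and p38 kinases. NF-κB then induces chemokines, adhesion receptors and survival proteins, together with its own inhibitors, so the response carries its own brakes. IL-10 is an anti-inflammatory cytokine that acts mainly on leukocytes through a receptor coupled to STAT3.

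BIRC3, PLAU and ID2 mark the comparison. They were chosen with earlier results of these data known, so their values and p-values are a description. BIRC3 encodes cIAP2, a ubiquitin ligase of the TNF receptor complex that protects cells from death, and lies at chr11:102317484-102339403 (GRCh38). It stood at 59.9, 58.8 and 57 FPKM (FPKM, fragments corrected for transcript length and sequencing depth) in the TNF-α libraries and at 0.666, 0.525 and 0.512 FPKM in the IL-10 libraries. All 3 TNF-α libraries were therefore far above all 3 controls. A gene was tested when 3 HCT116 libraries reached 1 FPKM. BIRC3 did so only through TNF-α libraries, so the filter favoured its rise. PLAU encodes the protease urokinase and lies at chr10:73908832-73917494. It stood at 33.2, 34 and 35.9 FPKM with TNF-α and at 5.61, 4.86 and 4.88 FPKM with IL-10. ID2, at chr2:8682056-8684461, encodes a helix-loop-helix protein without a DNA-binding region that blocks differentiation factors. It went the other way, at 47.2, 46.7 and 48.5 FPKM with TNF-α against 157, 163 and 152 FPKM with IL-10. Fitted differences on the log2(FPKM + 1) scale were 5.25 for BIRC3 (SE 0.0788, adjusted p = 1.6e-21), 2.53 for PLAU (SE 0.0681, adjusted p = 2.4e-17) and −1.71 for ID2 (SE 0.0305, adjusted p = 1.34e-20). This scale understates genes that are low in one group: on the recovered reads, BIRC3 differed by 6.73 and PLAU by 2.78 log2 units. The libraries are bulk RNA, so fewer cells with a transcript and less RNA per cell cannot be told apart.

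Promoter stretches of 4 induced genes and of ID2 are shown because NF-κB dimers bind short sites of the form GGGNNNTTCC, and the data hold genes that moved together. The stretches come from RefSeq (GRCh38.p14), run 5′ to 3′ on the strand of the gene, and have each match to GGGNNNTTCC on either strand in capitals. BIRC3 is chr11:102317234-102317433 (plus strand, bases 250 to 51 before the start), NFKBIA chr14:35404750-35404999 (minus strand, bases 250 to 1), CXCL1 chr4:73869143-73869392 (plus strand, bases 250 to 1), TNFAIP3 chr6:137867188-137867217 (plus strand, bases 71 to 42) and ID2 chr2:8681929-8681958 (plus strand, bases 127 to 98).
BIRC3: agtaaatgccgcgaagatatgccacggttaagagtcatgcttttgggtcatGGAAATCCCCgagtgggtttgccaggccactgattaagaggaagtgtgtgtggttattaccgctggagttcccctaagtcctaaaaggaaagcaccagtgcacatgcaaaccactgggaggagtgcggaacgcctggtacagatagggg
NFKBIA: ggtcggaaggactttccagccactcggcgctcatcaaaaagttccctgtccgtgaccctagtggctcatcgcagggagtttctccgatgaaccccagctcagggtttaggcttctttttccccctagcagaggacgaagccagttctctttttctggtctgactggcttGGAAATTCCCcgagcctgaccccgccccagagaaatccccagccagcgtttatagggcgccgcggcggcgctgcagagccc
CXCL1: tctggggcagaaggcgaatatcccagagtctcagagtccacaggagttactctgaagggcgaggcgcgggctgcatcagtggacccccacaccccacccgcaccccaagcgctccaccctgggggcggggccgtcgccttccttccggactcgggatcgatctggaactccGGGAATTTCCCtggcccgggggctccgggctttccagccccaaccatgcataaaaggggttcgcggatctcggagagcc
TNFAIP3: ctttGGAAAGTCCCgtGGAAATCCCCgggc
ID2: gcccaccaatGGAAGCGCCCgctcgtcttg
BIRC3 held 1 match, NFKBIA 1, TNFAIP3 2 side by side, and CXCL1 2 that overlap on opposite strands. ID2, which fell, also held 1. PLAU, NFKB2, CXCL8, TNFAIP2, CD83 and ICAM1 had none among the 250 bases before the start, which says only that these letters are not in that window. The start is the one the RefSeq promoter table uses, and for TNFAIP3 it lies inside the annotated gene. Of the 89 genes called at least 2-fold higher, 64 had a promoter in that table and 18 of these (28.1%) held a match. The share was 9.2% over all genes called higher, 5.88% over those called lower, 6.78% over the 8612 tested genes with a promoter and 5.61% over all 27305 promoters. Of the genes at least 2-fold lower only 4 had a promoter, and 1 of these held a match. A match is a description of the letters and not a shown binding site.

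Of 11395 genes tested, 4816 (42.3%) were called at an adjusted p under 0.05, 2013 of them higher with TNF-α (17.7%) and 2803 lower (24.6%). The median difference over all genes was −0.02. Most called differences were small: 89 genes (0.781%) were at least 2-fold higher and 7 (0.0614%) at least 2-fold lower, and 81 and 4 of these have a single entry in the table. The total of 7 became 4 without TNF-α replicate 1 or 2, 10 without IL-10 replicate 3 and 3 without a filter on low values. With 1 library left out, 3 to 6 of the same 7 genes stayed at least 2-fold lower, and 4 without IL-10 replicate 3. Of the 7, 2 were at least 2-fold lower against NC and 3 against IL-6 at 6 h. A gene was tested when 3 HCT116 libraries reached 1 FPKM, and 183 genes did so only through TNF-α libraries. Of these, 69 were called higher and 17 are among the 89, BIRC3 included. The filter chose such genes for high TNF-α values, so their rises are only a description. All 3 TNF-α libraries were above all 3 IL-10 libraries for 2423 genes (21.3%) and below them for 3222 (28.3%). The split depends on scaling: 41.8% of called genes were higher as deposited, 51.2% with median-of-ratios factors computed from the FPKM values, and 36.3% when scaled to total reads. The plot of all genes shows this shape, a broad band near 0 with a tail of large rises.

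**Figure D1:**
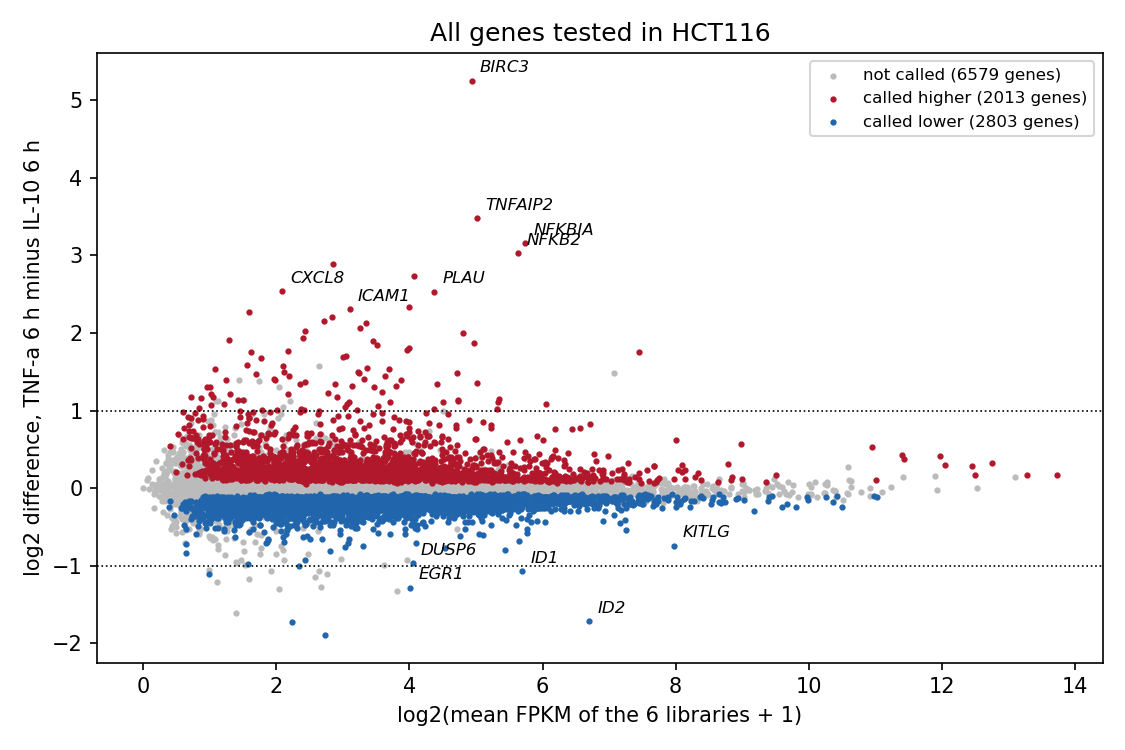
Log2 difference of each of the 11395 tested genes (TNF-α 6 h minus IL-10 6 h, y axis) against its level over the 6 libraries (log2 of mean FPKM + 1, x axis). Red points are the 2013 genes called higher, blue points the 2803 called lower, grey points those not called, and dotted lines mark 2-fold. BIRC3 lies highest at 5.25, while few points fall under −1.

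Depth was 41.3 to 48.3 M reads on genes with TNF-α and 43.0 to 47.4 M with IL-10. On the first principal component (53.3% of the variance of the 6 libraries) the groups lay apart, and IL-10 replicate 1 stood away from the other libraries on the second. That library was the highest of the controls for AREG, EREG, PLAUR, SERPINB9, TXNRD1, HBEGF and NDRG1. Of 11 colon epithelium markers, 6 were at 1 FPKM or more in all 6 libraries, with summed levels of 1620 to 1770 FPKM under TNF-α and 1780 to 1870 under IL-10. KRT8, KRT18, KRT19 and CDH1 were among them, whereas CDX1 was listed at 0 in these 6 libraries and VIL1, LGR5, CDH17 and GPA33 stayed under 0.1 FPKM, so the sum rests on general epithelial genes. Hepatocyte markers summed to 3.52 to 10.7 FPKM and 3.74 to 4.44 FPKM, against 18200 to 20700 in HepG2. Blood cell markers summed to 6.61 to 7.66 FPKM and 3.94 to 4.05 FPKM, most of it CD68, a lysosomal protein also made outside macrophages (log2 difference 0.71), while PTPRC was at most 0.00861 FPKM. Fibroblast and endothelium markers stayed at or under 1.16 FPKM in sum.

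**Figure D2:**
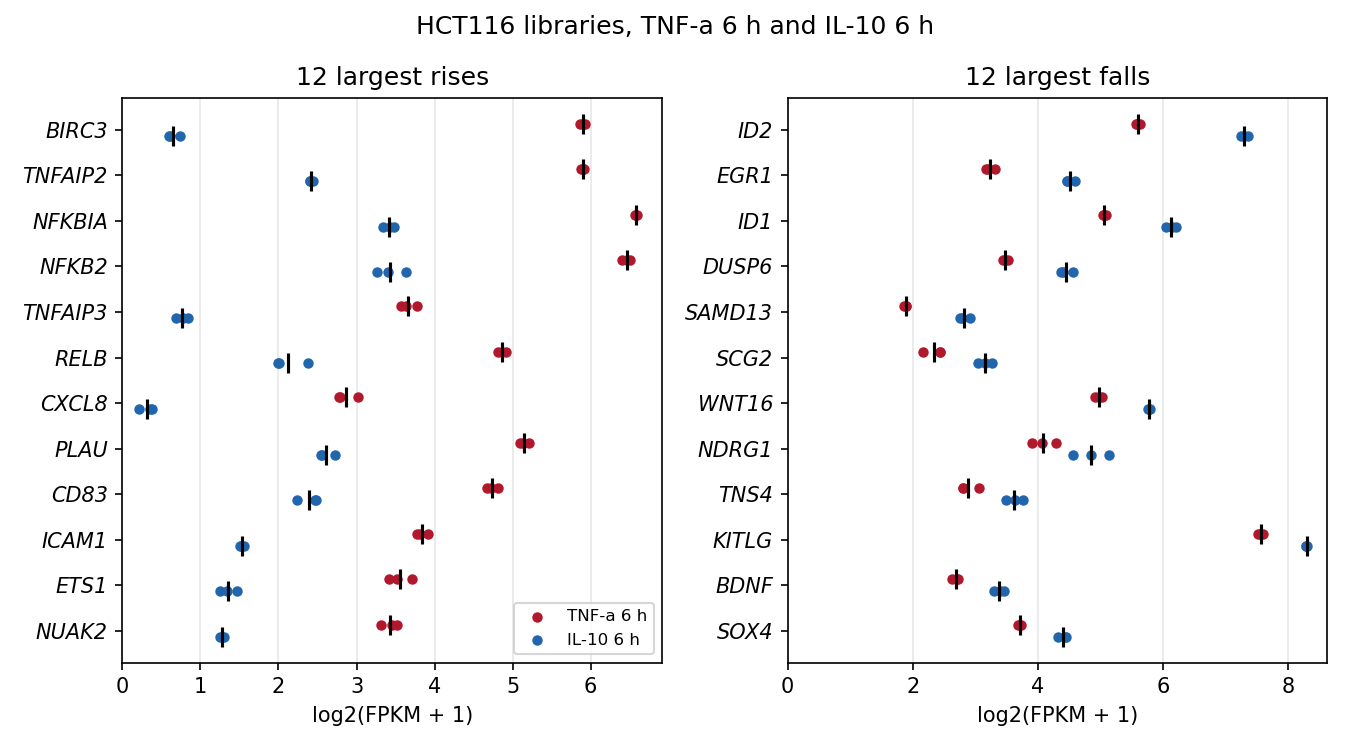
Level of the 12 largest called rises (left) and 12 largest called falls (right) in each library, as log2(FPKM + 1), limited to genes whose mean reaches 5 FPKM in either group. Red points are the 3 TNF-α libraries, blue points the 3 IL-10 libraries, and bars the group means. The groups do not overlap for any gene shown, which the choice of genes fixes, and BIRC3 and ID2 lead the panels.

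All 11 tested genes of the NF-κB subunits and IκB proteins were called higher, with a median of 0.99, and 5 were at least 2-fold higher. Over all genes, 17.7% were called higher and 0.781% were at least 2-fold higher. NFKBIZ passed the filter only through TNF-α libraries. NFKBIA encodes IκBα, the inhibitor that NF-κB itself restores. It stood at 93.9, 95.9 and 94.4 FPKM with TNF-α and at 10.2, 9.75 and 9.16 FPKM with IL-10, a log2 difference of 3.16 (SE 0.0546, adjusted p = 9.57e-21). NFKB2 encodes p100, the precursor of p52 in the noncanonical branch. It stood at 83.9, 87.3 and 90.1 FPKM against 11.4, 8.61 and 9.55 FPKM (log2 difference 3.03, adjusted p = 2.39e-18). Its partner RELB rose from 4.2, 2.97 and 3.03 FPKM to 27.2, 28.2 and 29.1 FPKM (2.74, adjusted p = 6.78e-15), so both genes of the p52-RelB dimer were higher in every TNF-α library. NFKB1, the source of p50, stood at 46.4, 47.4 and 51.1 FPKM against 12, 12.7 and 12.7 FPKM (1.87, adjusted p = 1.35e-19). RELA, the p65 subunit of the canonical dimer, rose from 13.2 ± 0.849 to 19.8 ± 0.663 FPKM (mean ± SD, n = 3 libraries a group), as did REL, from 2 ± 0.092 to 3.94 ± 0.465 FPKM.

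Of 18 tested members of the TNF receptor complex, 8 were called higher and 1 lower (median 0.19), against 17.7% and 24.6% over all genes. BIRC2, which encodes cIAP1 and neighbours BIRC3, was the only one at least 2-fold higher, at 46.3, 45.7 and 44.8 FPKM against 17.6, 17.6 and 16.4 FPKM (1.36, adjusted p = 8.35e-17). TRAF2, the adaptor that holds both cIAPs, differed by 0.43 (0.28 against NC), RBCK1 of the linear ubiquitin ligase by 0.32 and the kinase IKBKB by 0.29. The call for IKBKB is lost against NC (0.14, adjusted p = 0.0572). The receptor TNFRSF1A itself stood at 18 ± 0.272 FPKM with TNF-α and 18.6 ± 0.502 FPKM with IL-10, while TNFRSF1B reached at most 0.0537 FPKM in any HCT116 library.

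Feedback regulators of the complex were called higher for 13 of 17 tested members and lower for 0 (median 0.56), and 7 were at least 2-fold higher. BIRC3, TNFAIP3 and TRAF1 passed the filter only through TNF-α libraries, and without them the count is 10 of 14 (median 0.37). The shares over all genes were 17.7% higher and 24.6% lower. TNFAIP2, a TNF-induced protein of membrane protrusions, stood at 59.3, 57.9 and 58.6 FPKM against 4.29, 4.42 and 4.27 FPKM (3.48, adjusted p = 9.23e-21). TNFAIP3 encodes A20, the ubiquitin-editing enzyme that shuts the receptor complex down. It stood at 11.4, 10.9 and 12.7 FPKM against 0.793, 0.613 and 0.71 FPKM (2.89, adjusted p = 1.35e-19). TNIP1, which recruits A20, rose from 1.08, 1.2 and 1.16 FPKM to 5.21, 5.31 and 5.74 FPKM (1.58, adjusted p = 2.28e-16). CYLD, another deubiquitinase, moved from 2.42 ± 0.225 to 5.94 ± 0.243 FPKM.

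Chemokine and cytokine genes were low in absolute level. Of 33, 13 passed the filter on low values, and 9 of these did so only through TNF-α libraries, CXCL8, CXCL1, CCL20 and IL32 among them, so their rise was close to fixed by the filter and their values are a description. Of the other 4, 2 were called higher and 0 lower (median 0.28), against 17.7% and 24.6% over all genes. CXCL8, the neutrophil chemokine IL-8, stood at 5.89, 5.85 and 7.09 FPKM against 0.276, 0.163 and 0.298 FPKM, the latter from 17 to 31 reads a library. Its log2 difference was 2.54 (SE 0.0812, adjusted p = 3.99e-16) and 4.73 on the recovered reads. IL32 stood at 2.96, 2.42 and 3.23 FPKM with TNF-α and at 0, 0.0766 and 0 FPKM with IL-10. CXCL1, which like CXCL8 draws neutrophils, and CCL20, which draws dendritic and Th17 cells, stayed under 3 FPKM in these 6 HCT116 libraries. CXCL1 differed by 1.39 (adjusted p = 1.02e-11) and CCL20 by 1.53 (adjusted p = 7.49e-08). Among genes under the filter, CXCL10 read 0.116 to 0.225 FPKM with TNF-α and was listed at 0 with IL-10, and CXCL11 read 0.185 to 0.328 FPKM and was likewise listed at 0. TNF and IL6 were listed at 0 in every HCT116 library.

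Death and co-stimulatory receptors of the TNF superfamily were called higher for 7 of 13 tested genes and lower for 1 (median 0.24), or 6 of 12 without TNFRSF9, which passed the filter only through TNF-α libraries (median 0.13). All genes tested gave 17.7% higher and 24.6% lower. TNFRSF9, the co-stimulatory receptor 4-1BB, stood at 3.8, 4.11 and 4.03 FPKM against 0.0487, 0.0294 and 0.0118 FPKM, the latter from 4 to 15 reads a library (2.27, adjusted p = 2.66e-19). TNFRSF10B, the TRAIL death receptor DR5, stood at 51.9, 57 and 53.9 FPKM against 25.7, 24.6 and 23.3 FPKM (1.11, adjusted p = 2.02e-16), and the related TNFRSF10A differed by 0.4. CD40 differed by 0.68.

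Apoptosis regulators included called rises on both the death and the survival side, 10 of 17 tested genes, with 1 called lower (median 0.19). Shares over all genes were 17.7% higher and 24.6% lower. BBC3 encodes PUMA, a BH3-only killer of the BCL2 family, and stood at 4.17, 5.3 and 4.64 FPKM against 1.19, 1.27 and 0.962 FPKM (1.41, adjusted p = 8.87e-11). The BH3-only gene BIK differed by 0.72. CFLAR, which encodes the caspase-8 inhibitor c-FLIP, differed by 0.71 in the same 3 libraries. BCL2A1, a survival protein under the filter, read 0.708 to 1.61 FPKM with TNF-α and 0 to 0.0474 FPKM with IL-10.

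The list of urokinase and plasminogen activation also counts other serpins. Of its 10 tested genes, 6 were called higher, SERPINB8 and SERPINB9 among them, and 3 lower (median 0.16). All genes tested gave 17.7% and 24.6%. The receptor PLAUR, which holds urokinase at the cell surface, stood at 40.8, 40.5 and 49.6 FPKM against 12.8, 8.35 and 9.66 FPKM (2, adjusted p = 3.24e-11). Protease and receptor were thus both higher in every TNF-α library. SERPINB9, the inhibitor of granzyme B, stood at 28.4, 25.9 and 34.8 FPKM against 14.1, 9.19 and 10.4 FPKM (1.34, adjusted p = 1.09e-07), and SERPINB8 differed by 0.7.

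Adhesion receptors and laminins were called higher for 16 of 24 tested genes and lower for 3 (median 0.34). Over all genes the shares were 17.7% and 24.6%. ICAM1, the receptor that leukocyte integrins bind, stood at 12.7, 14.1 and 13.1 FPKM against 1.85, 1.95 and 1.88 FPKM (2.31, adjusted p = 1.96e-16), whereas VCAM1 reached at most 0.0147 FPKM. CD83 stood at 24.5, 25.5 and 27 FPKM against 4.56, 3.72 and 4.55 FPKM (2.34, adjusted p = 3.99e-16). LAMB3 encodes a chain of an epithelial anchoring laminin. It stood at 17, 18.3 and 19 FPKM against 7.31, 4.92 and 4.85 FPKM (1.53), with IL-10 replicate 1 the highest control.

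The genes the design text names moved little. Of 31 TIMP, MMP and EGF family genes, 14 passed the filter, and 7 of these were called higher and 3 lower (median 0.08), none by 2-fold. Across all genes 17.7% were called higher and 24.6% lower. MMP7 passed only through TNF-α libraries, and without it the median is 0.02. TIMP1, the inhibitor of metalloproteinases on the X chromosome, stood at 80.7, 82.7 and 82.2 FPKM against 74.3, 77.7 and 72.3 FPKM. Its difference of 0.13 (adjusted p = 0.0121) is not called against IL-6 at 6 h (0.08, adjusted p = 0.122), against NC (0.06, adjusted p = 0.272) or without IL-10 replicate 3 (0.11, adjusted p = 0.0616). TIMP2 stood at 6.87, 6.8 and 7.04 FPKM against 9.13, 8.82 and 8.09 FPKM, a fall of 0.29 on the log2 scale (adjusted p = 0.000162). TIMP3 was not called (−0.12, adjusted p = 0.197).

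Among the metalloproteinases, matrilysin MMP7 was low in all libraries, with 1.83, 1.53 and 1.62 FPKM against 1.07, 0.688 and 0.849 FPKM (0.51, adjusted p = 0.00117). The membrane enzyme MMP14 was not called (0.02, adjusted p = 0.77), and MMP15 differed by −0.17 (adjusted p = 0.02, and 0.137 without IL-10 replicate 3) and by −0.34 against NC. MMP1, MMP2, MMP3, MMP9 and MMP13 stayed under 0.1 FPKM in every HCT116 library, and so did EGF.

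TGFA, EGFR and HBEGF rose by more than TIMP1. TGFA, a ligand of EGFR, stood at 36.7, 35.4 and 40.5 FPKM against 21.4, 19.4 and 18.9 FPKM (0.88, adjusted p = 1.02e-10). EGFR itself stood at 4.12, 3.94 and 4.53 FPKM against 2.54, 2.12 and 2.33 FPKM (0.64, adjusted p = 1.11e-08). The ligand HBEGF differed by 0.61 (adjusted p = 3.31e-05). The most abundant ligands, AREG and EREG, overlapped between the groups. AREG stood at 295, 283 and 316 FPKM with TNF-α and at 296, 221 and 217 FPKM with IL-10, where replicate 1 reached the TNF-α level. Its difference of 0.3 (adjusted p = 0.0221) ranged from 0.22 to 0.44 with 1 library left out, with the adjusted p between 0.117 without IL-10 replicate 3 and 0.00071 without IL-10 replicate 1. The call is lost with only the 6 libraries (adjusted p = 0.101), while the difference was 0.64 against NC (adjusted p = 3.59e-05) and 0.55 against IL-6 at 6 h (adjusted p = 0.000207). EREG behaved alike, with 0.24 (adjusted p = 0.0151) and a loss of the call without TNF-α replicate 3 or without IL-10 replicate 2 or 3. With only the 6 libraries its adjusted p was 0.0691, and it differed by 0.6 against NC (adjusted p = 1.87e-06) and 0.39 against IL-6 (adjusted p = 0.000296). ERBB2 (−0.02) and BTC (−0.03) were not called, and ERBB3 differed by −0.2 (adjusted p = 0.021) with overlapping groups, by −0.31 against NC and by −0.37 against IL-6.

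**Figure D3:**
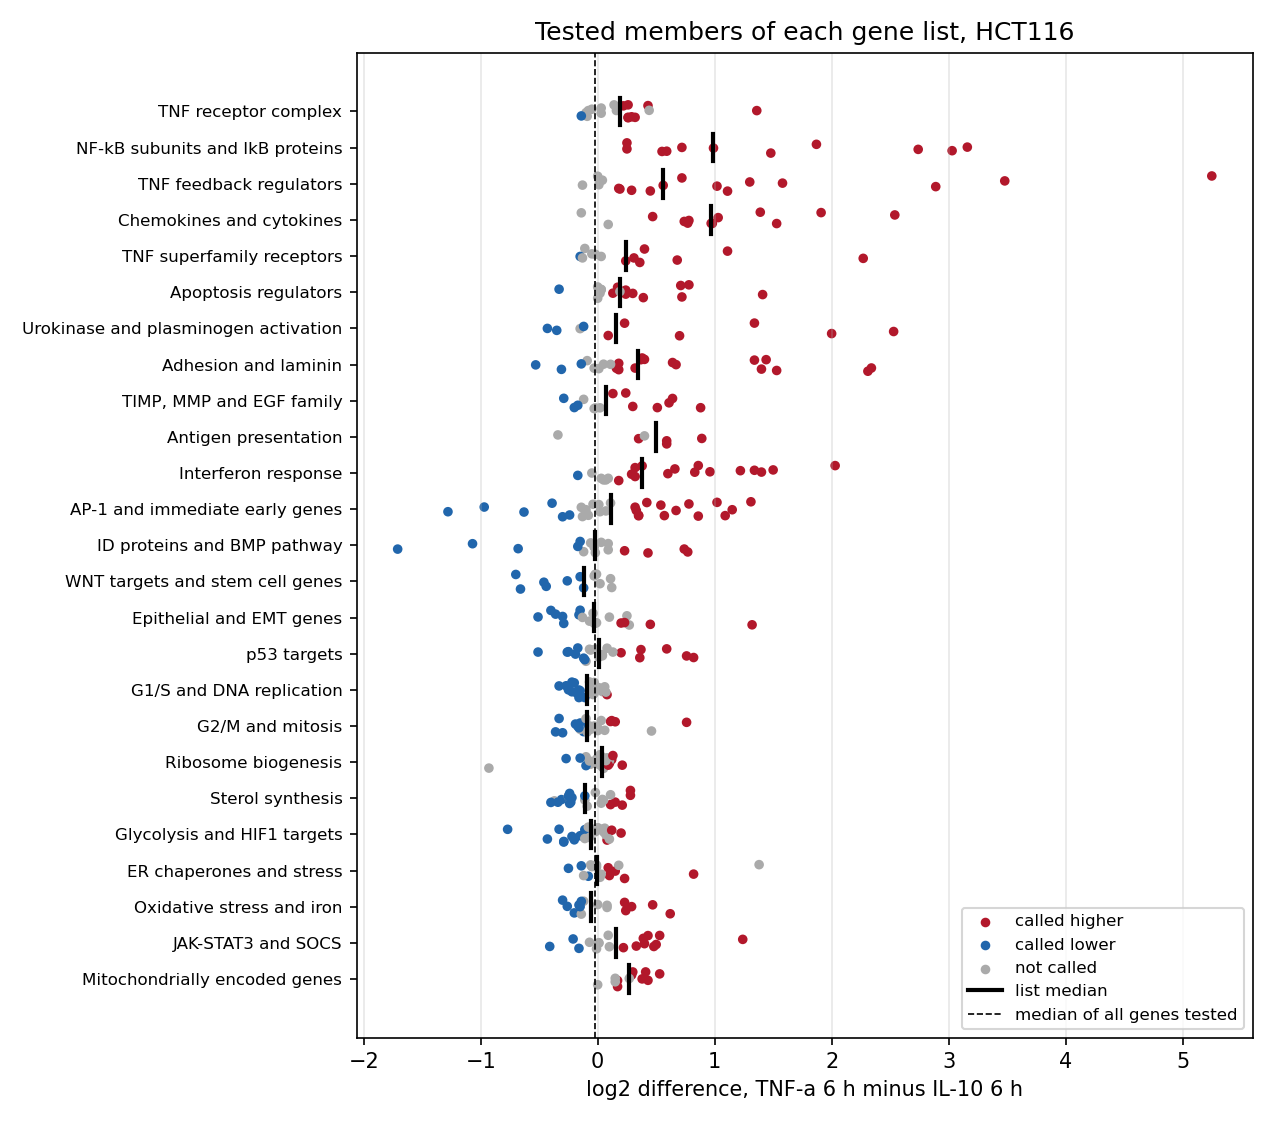
Log2 difference (TNF-α 6 h minus IL-10 6 h) of each tested member of 25 gene lists. Red points were called higher, blue called lower and grey not called, black bars are list medians, and the dashed line is the median of all genes (−0.02). The NF-kB list has a median of 0.99 with 11 of 11 called higher, while cell cycle, sterol and glycolysis lists sit near 0. Of the 13 chemokine and cytokine genes drawn, 9 passed the filter only through TNF-α libraries.

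Interferon response genes were called higher for 15 of 21 tested members and lower for 1 (median 0.38), against 17.7% and 24.6% over all genes. IFIH1, the double-stranded RNA sensor MDA5, stood at 8.12, 7.09 and 7.9 FPKM against 1.17, 1.13 and 1.09 FPKM (2.03, adjusted p = 2.88e-17). The transcription factors IRF2 and IRF1 differed by 1.5 and 1.34, and OAS3, which activates RNase L, by 1.4. The list has 34 genes, and those under the filter were not tested. Among them MX1 read 0.125 to 0.141 FPKM with TNF-α against 0.0509 to 0.071 FPKM with IL-10, and OAS1 0.0291 to 0.0917 FPKM against 0.0186 to 0.0253 FPKM, without overlap in either gene. IFIT2, ISG20, OAS2, GBP1 and GBP2 were also above their controls without overlap, whereas IRF7, IRF9, IFI27, IFI44, MX2 and XAF1 overlapped. All these values are close to 0, and 21.3% of all tested genes lay above the controls without overlap. In antigen presentation 6 of 18 genes were tested. The peptide-trimming enzymes ERAP2 (0.89) and ERAP1 (0.59) passed the filter only through TNF-α libraries, and 2 of the other 4 were called higher, while PSMB8 was listed at 0 in every HCT116 library.

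AP-1 and immediate early genes went both ways, with 14 of 29 called higher and 6 lower (median 0.11). Among all genes, 17.7% were called higher and 24.6% lower. MAFF (1.31), JUNB (1.15) and the ERK phosphatase DUSP5 (1.09) rose, JUNB from 24.2, 23.8 and 24.7 FPKM to 54.1, 55 and 55.9 FPKM. EGR1, a growth factor response gene, stood at 8.19, 8.97 and 8.03 FPKM with TNF-α against 21.2, 23.1 and 21.2 FPKM with IL-10, a fall of 1.28 (adjusted p = 5.95e-11). DUSP6, an ERK phosphatase induced by ERK activity, stood at 10.1, 9.91 and 10.5 FPKM against 22.7, 20.2 and 19.8 FPKM (−0.97, adjusted p = 3.47e-13). The 2 ERK phosphatases therefore moved in opposite directions in all 3 libraries. For EGR1 the control matters to the size, since IL-10 at 6 h was itself 0.38 above NC and the difference from NC was −0.9.

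Falls of at least 2-fold were fewer than rises of that size, although more genes were called lower than higher. In the ID and BMP list 5 of 16 tested genes were called lower and 4 higher (median −0.02), against 24.6% lower and 17.7% higher over all genes. ID1, like ID2 a target of BMP signalling, stood at 32.1, 32.4 and 33.1 FPKM against 65, 69.8 and 72.9 FPKM (−1.07, adjusted p = 2.99e-14). In the same list the ligand BMP2 read 1.21, 1 and 1.11 FPKM with TNF-α against 0.234, 0.273 and 0.274 FPKM and passed the filter only through TNF-α libraries. SMURF2 was called higher (0.77) and encodes a ubiquitin ligase that removes SMAD proteins. WNT targets and stem cell genes were called lower for 7 of 13 tested members and higher for 0 (median −0.12), with 1 called higher under median-of-ratios factors. SOX4 stood at 12.2, 11.9 and 12.3 FPKM against 19.1, 20.6 and 21 FPKM (−0.7, adjusted p = 2.79e-11). SOX9, a factor of intestinal progenitors, differed by −0.66, and the WNT feedback genes RNF43 and AXIN2 by −0.46 and −0.44 at levels near 2 FPKM.

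Among the 12 largest falls named, KITLG, the KIT receptor ligand, stood at 194, 184 and 187 FPKM against 312, 317 and 314 FPKM (−0.74, adjusted p = 9.51e-14), and was the most abundant of them. WNT16 differed by −0.8, the neurotrophin BDNF by −0.7, the granule protein SCG2 by −0.81, the adhesion protein TNS4 by −0.74 and SAMD13 by −0.93. NDRG1, a gene of stress and low oxygen, stood at 15.7, 14 and 18.6 FPKM against 34.4, 22.7 and 27.9 FPKM (−0.77, adjusted p = 0.000104), with wide spread among the controls, and −0.41 against IL-6 at 6 h.

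Epithelial and EMT genes had 4 called higher and 7 lower of 20 tested (median −0.03). The epithelial factor ELF3 rose from 7.32, 7.02 and 6.58 FPKM to 17.6, 19.3 and 19.9 FPKM (1.32), and E-cadherin CDH1 was 0.45 higher. The keratin KRT18 was 0.3 lower and the tight junction gene CLDN3 0.51 lower. In the p53 list 6 of 23 were called higher, led by CDKN1A (0.82) and PLK2 (0.76), and 7 lower, led by GDF15 (−0.51, and −0.31 against IL-6 at 6 h). Over all genes 17.7% were called higher and 24.6% lower.

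Proliferation and metabolism shifted by little. The counts below stand beside shares of 24.6% called lower and 17.7% called higher over all genes. Of 24 G1/S genes 12 were called lower and 1 higher (median −0.09), and of 25 G2/M genes 10 lower and 4 higher (median −0.09), but the second count is 6 lower and 5 higher with median-of-ratios factors and 4 lower and 1 higher against NC. Among the cyclin genes, CCNE2 differed by −0.33 (−0.21 against NC) and CCNA2 by −0.3 (−0.1 against NC), and CCNA2 was 0.2 higher in IL-10 than in NC (adjusted p = 0.00109). Glycolysis and HIF1 targets had 9 of 24 called lower and 3 higher, with the glucose transporter SLC2A1 at −0.43 (−0.26 against IL-6). Sterol synthesis had 9 of 23 lower and 5 higher, and ribosome biogenesis 3 of 25 lower and 5 higher, the latter 2 lower and 12 higher with median-of-ratios factors and 1 higher against IL-6. The oxidative stress and iron list had 5 of 16 higher and 6 lower, with SOD2 0.47 higher and NQO1 0.3 lower. Against NC that list had 6 higher and 1 lower (median 0.09), and NQO1 differed by −0.16. The ER list had 5 of 19 higher and 3 lower. In the JAK-STAT3 list 9 of 18 were higher and 3 lower, led by the shared cytokine receptor IL6ST (gp130) at 1.24.

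Mitochondrially encoded genes were called higher for 8 of 13 (median 0.27), against 17.7% of all genes. The IL-10 libraries held the lowest share of reads on mitochondrially encoded genes. They took 5.84% to 6.13% of reads with TNF-α and 4.87% to 5.28% with IL-10 at 6 h, against 5.62% to 6.02% in NC and 5.68% to 6.12% with IL-6 at 6 h. Set against NC, 2 of 13 were higher with TNF-α (median 0.09) and 6 of 13 lower with IL-10 (median −0.14), where 6.49% of all genes were lower. Set against IL-6 at 6 h, 1 of 13 was higher with TNF-α (median 0.02).

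The choice of control was examined through 2 other control groups, which share the 3 TNF-α libraries, so the values stand side by side and are no separate evidence. IL-10 at 6 h itself differed from NC for 2332 genes (20.5%), 0 of them (0%) at least 2-fold higher and 8 (0.0702%) at least 2-fold lower, with no time given for NC. BIRC3 differed by 5.25 against IL-10, 5.38 against NC and 5.35 against IL-6 at 6 h. NFKBIA gave 3.16, 3.18 and 3.17, PLAU 2.53, 2.56 and 2.57, and ID2 −1.71, −1.69 and −1.6. Of the 125 named genes called against IL-10, 97 kept their sign and call within 1.5 times of their value against NC and 106 against IL-6. Another 13 and 7 kept their sign but lost the call. Apart from these, BNIP3 lost its call at 0 against IL-6 (adjusted p = 0.967), and HERPUD1 turned to −0.1 against NC (adjusted p = 0.0189). Of the 89 genes at least 2-fold higher, 81 were also called higher against NC (16.7% of all genes were) and 83 against IL-6 (16.8%). Receptor genes for the control cytokine were low, with IL10RA at 0.148 to 0.194 FPKM and IL10RB at 0.041 to 0.077 FPKM in the IL-10 libraries.

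The same contrast at 3 h asks whether the response had grown or faded by 6 h, and it uses other libraries. The TNF-α difference was more positive at 6 h than at 3 h for 286 genes (2.51%) and more negative for 150 (1.32%), 436 in all (3.83%). These are signed changes: of the 286, 204 lay farther from 0 at 6 h and 82 nearer to it, and of the 150, 88 lay farther and 62 nearer. CXCL8 stood at 48.8, 49.8 and 53.7 FPKM after 3 h of TNF-α, with at most 0.47 FPKM in the 3 h controls. Its difference fell from 5.22 at 3 h to 2.54 at 6 h, a change of −2.67 (adjusted p = 1.54e-12). ICAM1 had read 38.8, 37.8 and 41.6 FPKM at 3 h, and its difference changed by −1.83 (adjusted p = 1.03e-10). CXCL1 (−1.75), CCL20 (−1.63), IRF1 (−1.04), BBC3 (−0.96) and NFKBIA (−0.91) were also smaller at 6 h. In the chemokine list 7 of 13 tested genes had a smaller difference at 6 h and 2 a larger one, and in the NF-κB and IκB list 5 of 11 had a smaller and 0 a larger one. Of those 13 chemokine genes, 9 passed the filter only through TNF-α libraries of 3 h or 6 h, as did NFKBIZ. The filter thus chose them for high TNF-α values, and the chemokine count is only a description. For CCL20 the call is lost with a pseudocount of 0.1 (adjusted p = 0.275), and 1 of its 3 h controls is listed at 0.

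BIRC3 was 0.44 smaller at 6 h but still the largest difference. TNFAIP2 (change 0.05), NFKB2 (0.25), RELB (0.11), PLAU (0.03), BIRC2 (0.03) and ID2 (−0.04) were not called for a change between hours. PLAU and ID2 nevertheless changed level on both sides. At 3 h PLAU read 90.3, 93.3 and 95 FPKM with TNF-α and 16.4, 15.6 and 14.5 FPKM with IL-10. Its 6 h means were 34.4 and 5.12 FPKM, with 4.77, 4.62 and 5.63 FPKM in NC. ID2 read 71.8, 74.4 and 70.3 FPKM against 225, 233 and 237 FPKM at 3 h, with 6 h means of 47.4 and 158 FPKM. For a further group the difference grew. FGD6, a guanine nucleotide exchange factor, stood at 11.5, 10.7 and 11.6 FPKM at 6 h against 3.05, 2.74 and 2.63 FPKM in its controls. After 3 h of TNF-α it had read 7.6, 7.66 and 7.74 FPKM, and the change between hours was 0.7 (adjusted p = 1.19e-06). MALT1, a paracaspase of NF-κB signalling, changed by 0.74 and the transcription factor ETS1 by 0.59. FAM110C differed by −0.23 at 3 h and 0.77 at 6 h (change 1.01, adjusted p = 2e-07), and its control moved as well. It read 6.38, 6.81 and 6.87 FPKM with TNF-α and 8.38, 7.57 and 8.16 FPKM with IL-10 at 3 h, then 8.8, 8.74 and 9.64 FPKM and 5.24, 4.42 and 5.02 FPKM at 6 h, with 4.03, 3.64 and 3.94 FPKM in NC. EGR1 fell further, from −0.52 at 3 h to −1.28 at 6 h. Of the 89 genes at least 2-fold higher at 6 h, 16 had a larger difference at 3 h, 17 a smaller one, and 56 were not called for a change. Those 89 were chosen for a large value at 6 h, which favours a larger difference at that hour.

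**Figure D4:**
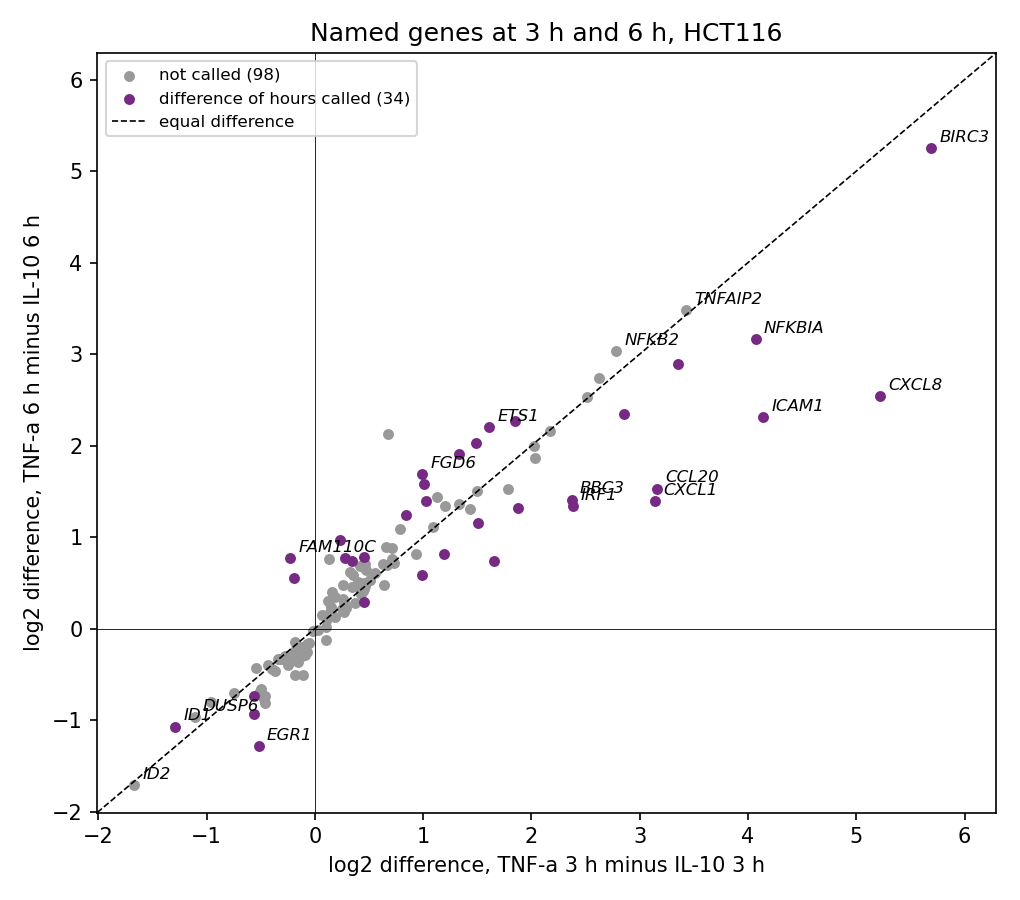
Log2 difference of the 132 named genes after 6 h (y axis) against the difference after 3 h (x axis), each TNF-α minus IL-10 of the same hour in HCT116. Purple points have a called difference between the hours, grey points do not, and the dashed line marks equal differences. CXCL8, ICAM1, CXCL1 and CCL20 lie under the line, and FGD6 and FAM110C above it.

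HepG2 cells given the same agents for 6 h served to ask how far the response belongs to the line. Of 9683 genes tested in both lines, the TNF-α difference was more positive in HCT116 for 799 (8.25%) and more negative for 1611 (16.6%), 2410 in all (24.9%). Of the 70 genes at least 2-fold higher in HCT116 that were tested in both, 54 had a larger difference in HCT116 and 0 a smaller one. Those 70 were chosen for a large value in HCT116, which favours that line. BIRC3 stood at 22, 18.7 and 22.3 FPKM with TNF-α in HepG2 against 1.35, 1.32 and 1.25 FPKM, so its difference was 3.25 there and the lines differed by 2 (adjusted p = 1.8e-16). PLAUR read 1.22, 1.02 and 1.05 FPKM against 1.07, 0.933 and 1.2 FPKM in HepG2, with overlapping groups, and the lines differed by 1.98 (adjusted p = 4.92e-13). IFIH1 (1.64), FGD6 (1.56), IRF2 (1.4), SERPINB9 (1.23), NFKB2 (1.19), RELB (1.08) and TGFA (0.9) also had larger differences in HCT116. CXCL8 (−0.3, adjusted p = 0.188) and ICAM1 (−0.14, adjusted p = 0.299) were not called for a difference between lines, though CXCL8 reached 80.8, 62.2 and 79.5 FPKM in HepG2. The sign turns with the pseudocount: at 0.1 the lines differed by 1.27 for CXCL8, more positive in HCT116 (adjusted p = 0.00157), and by 0.26 for ICAM1 (adjusted p = 0.125).

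Several genes had a larger difference in HepG2. FSTL3, an activin-binding protein, stood at 7.58, 7.85 and 8.51 FPKM with TNF-α in HCT116 against 7.17, 7.18 and 7.51 FPKM (0.11, adjusted p = 0.108), and at 99.5, 98.3 and 105 FPKM against 12.5, 12.8 and 10.8 FPKM in HepG2. The lines differed by −2.86 (adjusted p = 5.41e-22). SGK1 (−1.66), CXCL2 (−1.58) and SOD2 (−1.32) were likewise larger in HepG2. ID2, EGR1, DUSP6 and SOX9 fell in HCT116 and had more negative differences there than in HepG2 by the same test. ID2 stood at 83.5, 77 and 76.9 FPKM against 91.2, 88.3 and 95 FPKM in HepG2, and the lines differed by −1.5 (adjusted p = 7.7e-23). EGR1 differed between lines by −1.37, SOX9 by −1.16 and DUSP6 by −1.09. In HepG2, SOX9 was higher with TNF-α, at 60.2, 61.4 and 62.6 FPKM against 46.1, 41.9 and 41.9 FPKM. DUSP6 was slightly higher there (24.7, 23.9 and 25 FPKM against 22.8, 22.3 and 22.3 FPKM), and the EGR1 groups overlapped.

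**Figure D5:**
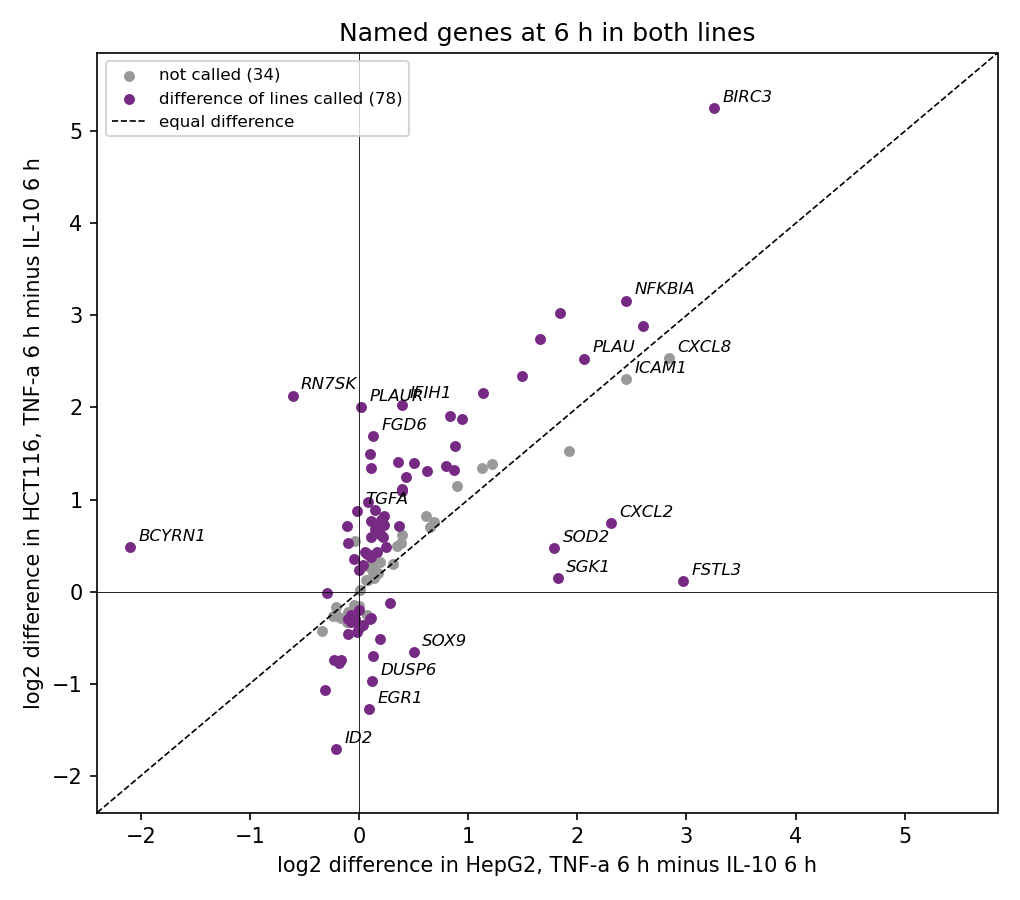
Log2 difference at 6 h (TNF-α minus IL-10) of the 112 named genes tested in both lines, HCT116 on the y axis and HepG2 on the x axis. Purple points (78) have a called difference between lines, grey points (34) do not, and the dashed line marks equal differences. BIRC3 and PLAUR lie above the line, FSTL3, SGK1, SOD2 and CXCL2 below it, and ID2 lies at −1.71 in HCT116 and −0.21 in HepG2.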

How the data were processed

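Poly(A) RNA was sequenced as paired ends on an MGI instrument, per the labels' protocols. FastQC, HISAT2, StringTie, DESeq2 and GRCh38 stand in the submitters' processing notes, with no version or role. The authors deposited FPKM values, a table of 50037 gene entries by 54 libraries. Columns of unnamed comparisons were not used. The series title speaks of tomato callus, while labels, design text and gene symbols are human. Separate cultures are not stated for the replicates, so the p-values cover the spread between libraries, which may be technical.

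From the FPKM steps, whole reads came back for 36451 of 36451 genes above 0 (tolerance 0.01 read). Limma 3.58.1 with a trend (R 4.3.3, version 1.17.8 of data.table) was fitted to log2(FPKM + 1) of the 27 HCT116 libraries with 1 mean per group. A gene entered the fit when 3 or more of these libraries reached 1 FPKM, which left 11395. The hours were compared in the same fit, and the lines in a fit of all 54 libraries (9683 genes). Calls were made at a Benjamini-Hochberg adjusted p under 0.05. A 0 can be a failed estimate and is given as listed at 0. Genes with a second, copy entry were tested but not named. The sources used here do not say whether counting used strand, so overlapping genes are uncertain.

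The comparison, its members and the lists were chosen with earlier results of these data known. The naming rule took BIRC3, PLAU and ID2, then the 12 largest called rises and falls without overlap that reached 5 FPKM on average in a group. It added the 4 largest called members of each list, every tested TIMP, MMP and EGF family gene, and the 4 largest called changes per direction between hours and lines. Some genes the rule takes are not reported here. Other genes stand in the text as members of a described list or as picked once their values were known. Simulated data held 50 changed genes per size, far fewer than were called in the real data. The test of TNF-α against IL-10 at 6 h recovered 78%, 92%, 96% and 98% of genes changed 1.25, 1.5, 2 and 4-fold. It had 3.2% of calls on unchanged genes (10920 genes). Recovery at the same sizes was 48%, 68%, 90% and 92% for the hours and 56%, 84%, 98% and 94% for the lines. Loci and promoters come from RefSeq GRCh38.p14 (132 of 132 named genes with a locus, 97 with a promoter). Alternatives varied the pseudocount, filter, scaling, model (voom on recovered reads), replicate block, library set and control, and left out each library. Scaling to total reads and leaving out copy-entry genes were added after seeing the data. Replicate pairs differed by more than sampling noise, with chi-square over degrees of freedom between 7.04 and 12.8.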

Additional observations from a re-analysis of the deposited data

Results flagged for a closer look

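These results stand out because the effect of TNF-α against IL-10 differed between groups by the test of the difference itself. Between hours in HCT116, 436 genes were called. The named ones with the largest positive change (6 h minus 3 h, log2) were FAM110C at 1.01, MALT1 at 0.74, the short entry MIR10527 at 0.74 and FGD6 at 0.7. Reads on MIR10527, a microRNA hairpin, cannot be told apart from those of a transcript that overlaps it. The largest negative changes were CXCL8 at −2.67, ICAM1 at −1.83, CXCL1 at −1.75, CCL20 at −1.63 and IRF1 at −1.04.

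Between lines, 2410 genes were called (HCT116 minus HepG2, log2). The largest positive values among named genes were RN7SK at 2.75, BCYRN1 at 2.58, BIRC3 at 2, PLAUR at 1.98, IFIH1 at 1.64, FGD6 at 1.56, IRF2 at 1.4 and SERPINB9 at 1.23. NFKB2 followed at 1.19, IL32 and RELB at 1.08 each, BBC3 at 1.05 and NUAK2 at 1.01. The largest negative values were FSTL3 at −2.86, SGK1 at −1.66, CXCL2 at −1.58, ID2 at −1.5, EGR1 at −1.37, SOD2 at −1.32, SOX9 at −1.16 and DUSP6 at −1.09.

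RN7SK and BCYRN1 are short noncoding RNAs made by RNA polymerase III, and RN7SK lacks a poly(A) tail. RN7SK stood at 10.3, 8.7 and 28.7 FPKM with TNF-α and at 3.68, 2.08 and 1.67 FPKM with IL-10 in HCT116, so replicate 3 stands apart from the other TNF-α libraries. Its difference of 2.13 was 1.63 without that library. BCYRN1 overlapped between the HCT116 groups and was not called there (0.48, adjusted p = 0.139), and its HepG2 groups read 11.1, 9.91 and 9.71 FPKM against 57.8, 47.8 and 37.8 FPKM.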

How the results depend on the processing

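Counts of genes called higher and lower at 6 h stayed within 1.5 times under every alternative run, at 1422 to 2431 and 1952 to 3156, and at 1676 to 1876 and 2325 to 2707 with 1 library left out. The number at least 2-fold higher went from 89 to 156 with a pseudocount of 0.1 and to 167 with voom on the recovered reads, and the number at least 2-fold lower from 7 to 20 and 17. Genes with a more positive difference at 6 h than at 3 h numbered 185 without a filter on low values, and 181 to 311 with 1 library left out (181 without TNF-α 6 h replicate 3, 184 without TNF-α 3 h replicate 2, 189 and 187 without IL-10 3 h replicates 2 and 3). Those with a more negative one numbered 89 to 165, 89 without TNF-α 3 h replicate 3. Genes more positive in HCT116 than in HepG2 numbered 1402 without a filter and 493 with one of 5 FPKM, where fewer genes are tested.

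Named genes kept direction and call in 2147 of their runs at 6 h, lost the call in 51, gained it in 10 and changed sign in 11. The sign changes were ERBB2 (0.01 with median-of-ratios factors and with voom, −0.04 to 0.02 with 1 library left out), MMP14 (0 against IL-6, 0 to 0.05 with 1 library left out), BTC (0.07 against IL-6 and against NC, −0.06 to 0 with 1 library left out), BCYRN1 (−0.27 against IL-6), BNIP3 (0 against IL-6) and HERPUD1 (−0.1 against NC). Between lines, CXCL8 and ICAM1 turned to 1.27 and 0.26 with a pseudocount of 0.1, while leaving out 1 library gave −0.42 to −0.19 and −0.2 to −0.09. The cause was not tested. Deviations of same-numbered TNF-α and IL-10 libraries correlated at 0.032, 0.089 and 0.021, and those of other pairs at −0.066 to 0.032. Such small values cannot tell whether the numbers pair the samples. With the replicate block, 2061 genes were higher and 2837 lower, 286 and 165 for the hours, and 852 and 1669 for the lines.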

Other observations

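Genes outside the lists also rose, and the following were chosen after their values were seen. SDC4, a heparan sulfate proteoglycan of the cell surface, was the most abundant of the 81 single-entry genes at least 2-fold higher, at 262, 259 and 283 FPKM with TNF-α and 91.9, 74.2 and 71.5 FPKM with IL-10 (log2 difference 1.75). OPTN, an autophagy receptor that binds linear ubiquitin, stood at 15.8, 15.5 and 17.5 FPKM against 3.75, 3.66 and 3.61 FPKM (1.89). IRAK2, a kinase of Toll-like receptor signalling, stood at 6.82, 7.77 and 7.73 FPKM against 1.4, 1.19 and 1.01 FPKM (1.94). NINJ1, which ruptures the plasma membrane of dying cells, stood at 24, 23.1 and 22.5 FPKM against 6.64, 5.96 and 5.61 FPKM (1.78). The groups did not overlap for any of these 4.

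Transcription factors and a DNA deaminase were among them too. NFE2L3 stood at 37.2, 36.6 and 39 FPKM against 13, 12.9 and 12.7 FPKM (1.48). SMAD3, the effector of TGF-β and activin receptors, stood at 34.2, 36.1 and 35.8 FPKM against 16.9, 15.5 and 15 FPKM (1.12). APOBEC3B stood at 12.6, 10.6 and 11.6 FPKM against 4.57, 3.46 and 4.15 FPKM (1.32). Short noncoding RNAs varied widely within groups: SNORD3A read 7.42, 7.44 and 29.9 FPKM with TNF-α and 5.43, 4.09 and 1.64 FPKM with IL-10, with TNF-α replicate 3 apart as it was for RN7SK.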
